A study of Lactuca sativa with 6 samples.

Results

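Cluster-13343.0, described as fatty acid synthase-like, Cluster-15285.0, described as a malonyl-coenzyme A:anthocyanin 3-O-glucoside malonyltransferase, and Cluster-16212.0, described as inactive beta-amylase 9-like, are the genes of lipid, anthocyanin and starch metabolism among the 9 genes that the study took to qRT-PCR. They are 3 of the 39253 transcript clusters of a lettuce leaf transcriptome, and were found by their cluster identifiers. The study selected them on these same libraries, as differentially expressed genes of LsCv versus LsCK for the fatty acid synthase-like and malonyltransferase clusters and of LsSq versus LsCK for the beta-amylase cluster. Those 3 contrasts are therefore given as a description with no test, and only the other contrasts were tested. Each tested contrast shares the libraries of a group with the contrast of selection, so it is not independent of the choice.

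The study asked how lettuce seedlings respond to microalgal extracts given as biostimulants. Lettuce (Lactuca sativa) seedlings from a local nursery, 10 to a box, stood on pumice wetted with Hoagland nutrient solution for 6 days, and every box then received 500 mL of that solution. It was given alone to the untreated seedlings (LsCK), with an extract of the green microalga Chlorella vulgaris (LsCv) or with an extract of Scenedesmus quadricauda (LsSq), each extract at 1 mg of organic carbon per litre. Leaves were taken 4 days after treatment, and poly-A RNA was sequenced in 2 libraries per group, 6 in all. Extracts, not living algae, were applied at a single dose, and the cultivar and the number of seedlings behind a library are not given in the sources used here.

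In plants, fatty acids are built mainly in plastids by a set of separate enzymes, whereas animals use a single large fatty acid synthase protein. Anthocyanins are coloured flavonoid pigments, and malonyltransferases of the BAHD family attach a malonyl group to their sugar, which makes the pigment more stable and more soluble. Beta-amylases release maltose from starch, and in Arabidopsis the beta-amylase 9 protein lacks catalytic activity.

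The cluster sequences were not used here, and the primers are the only stretches of these genes that could be shown. They are given as the study lists them for each cluster, together with those of the reference gene, a chloroplastic ribosomal RNA small subunit methyltransferase (Cluster-15809.13020). No primer was matched to a cluster sequence here. All are written 5′ to 3′.
Fatty acid synthase-like, forward: ccatttgatagttgccgacga
Fatty acid synthase-like, reverse: tgattccagtgttgacgggg
Anthocyanin malonyltransferase, forward: tcccaaatatcgccaccacc
Anthocyanin malonyltransferase, reverse: agagtgggggaactcgtaga
Inactive beta-amylase 9-like, forward: cgccccaagttacaaccaac
Inactive beta-amylase 9-like, reverse: gaggcagccattgacaggat
Reference gene, forward: ctttctcgtgtgccatgacg
Reference gene, reverse: gccaacaacaacacctccgt
The forward primer of the fatty acid synthase-like cluster has 21 bases, of which 10 are G or C (47.6%), and each of the others has 20 bases with 11 G or C (55%). No genome position is given for the clusters, because they come from an assembly made without a reference genome.

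Depth was similar in all libraries, with total counts between 26408716 and 35184764, so that 3 counts correspond to 0.0857 to 0.111 CPM (the count relative to the library size, scaled by TMM). LsCK replicate 2 stood apart. It held 2212 clusters with more than 3 counts there and 3 or fewer in every other library, against 306 to 628 in the other libraries, and 911 of the 1214 clusters held from the study's core list were among them. Leaf markers could not be checked, because most clusters carry no gene name in the files. Nothing in the labels says whether the libraries of a group came from separate boxes, so the p-values cannot be taken to speak for separate boxes. The tests set a difference between groups against the spread between replicate libraries, estimated with information from all tested clusters. The 3 clusters had 420, 200 and 821 counts in all, all whole numbers, whereas 28.5% of clusters had a fractional count in some library. Each was the only cluster with its Corset number, and all 3 passed the filter on low counts, which left 28157 clusters to test.

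The fatty acid synthase-like cluster (Cluster-13343.0) differed widely between libraries of the same group. It had 106 and 24 counts in the LsCK libraries, 20 and 202 in LsCv, and 48 and 20 in LsSq. As levels, these were 3.03 and 0.836 CPM in LsCK, 0.738 and 6.72 CPM in LsCv, and 1.56 and 0.680 CPM in LsSq. LsCv replicate 2 was the highest of the 6 libraries and LsCv replicate 1 was among the lowest, level with LsCK replicate 2 and LsSq replicate 2, and the groups overlapped in every contrast. The counting error of these values was smaller than the gap between the LsCv replicates, since the 95% Poisson interval was 12.2 to 30.9 counts in replicate 1 and 175 to 232 counts in replicate 2. Such intervals cover counting error only, since the reads carry no molecular identifiers. In bulk leaf RNA, fewer cells of a type and less RNA per cell cannot be told apart.

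In the contrast by which this cluster was selected, LsCv versus LsCK, the mean level was 3.73 ± 4.23 CPM (SD, n = 2) against 1.93 ± 1.55 CPM, with a log2fold change of 0.95 ± 1.09 (SE). The direction rested on LsCv replicate 2. The log2fold change was -1.39 without that library, 1.82 without LsCv replicate 1, 2.17 without LsCK replicate 1 and 0.29 without LsCK replicate 2. The mean in LsSq was 1.12 ± 0.623 CPM. LsSq versus LsCK gave a log2fold change of -0.79 ± 1.10, with a 95% interval from -3.42 to 1.85, and did not pass the test (adjusted p = 0.968 by edgeR's quasi-likelihood test with Benjamini-Hochberg adjustment). It was 0.38 without LsCK replicate 1, -1.43 without LsCK replicate 2, -1.50 without LsSq replicate 1 and -0.32 without LsSq replicate 2. LsCv versus LsSq gave 1.73 ± 1.12, with an interval from -0.94 to 4.40 and an edgeR adjusted p of 0.466. It became -0.60 without LsCv replicate 2 and 2.62 without LsCv replicate 1.

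In the study's list of core genes, the words fatty acid synthase stand in the descriptions of Cluster-16968.0, Cluster-7433.1 and Cluster-2380.0. The closest described proteins of Cluster-16968.0 and Cluster-7433.1 are a 3-ketoacyl-CoA synthase 12-like protein and chalcone synthase 1. Cluster-2380.0, whose closest described protein is a hypothetical protein of the green alga Coccomyxa subellipsoidea, was singled out after its values had been seen. It had 148 counts in LsCK replicate 2 and 0 in each of the other libraries. Cluster-13343.0 had counts in every library, and its level in LsCK replicate 2 was the lower of the control values.

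The malonyltransferase (Cluster-15285.0) had lower levels in both LsCv libraries than in the controls, and no reads in one of them. Its counts were 64 and 42 in LsCK, 24 and 0 in LsCv, and 53 and 17 in LsSq. The levels were 1.83 and 1.46 CPM in LsCK, 0.885 and 0 CPM in LsCv, and 1.72 and 0.578 CPM in LsSq. Both LsCv libraries lay below both LsCK libraries, whereas LsSq overlapped with both of the other groups. For the 0 in LsCv replicate 2 a floor of 3 counts, or 0.0998 CPM, was used. The upper end of its 95% Poisson interval, which is two-sided, was 3.69 counts or 0.123 CPM.

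In LsCv versus LsCK, the contrast of its selection, the mean was 0.443 ± 0.626 CPM (SD, n = 2) against 1.65 ± 0.257 CPM, a log2fold change of -1.90 ± 1.46 (SE). It was -0.90 without LsCv replicate 2. With LsCv replicate 2 as the only LsCv library, the level against the floor of 3 counts was at least 16.5-fold lower than the mean of LsCK and at least 11.5-fold lower than the mean of LsSq, which was 1.15 ± 0.811 CPM. LsSq versus LsCK gave -0.51 ± 1.39, with a 95% interval from -3.84 to 2.81 and an edgeR adjusted p of 0.987. That value was -1.50 without LsSq replicate 1 and 0.06 without LsSq replicate 2. LsCv versus LsSq gave -1.38 ± 1.45, with an interval from -4.85 to 2.09 and an edgeR adjusted p of 0.655, and it was -0.38 without LsCv replicate 2.

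The inactive beta-amylase 9-like cluster (Cluster-16212.0) had its highest levels in LsCv. It had 146 and 76 counts in LsCK, 211 and 156 in LsCv, and 143 and 89 in LsSq. The levels were 4.17 and 2.65 CPM in LsCK, 7.78 and 5.19 CPM in LsCv, and 4.65 and 3.03 CPM in LsSq. Both LsCv libraries lay above every LsCK and LsSq library, while LsSq and LsCK overlapped. In every group replicate 1 was higher than replicate 2, which was also so for the malonyltransferase and for 18% of the tested clusters.

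For this cluster the contrast of selection was LsSq versus LsCK, with means of 3.84 ± 1.15 CPM and 3.41 ± 1.08 CPM (SD, n = 2) and a log2fold change of 0.17 ± 0.463 (SE), which turned to -0.13 when libraries were scaled to the reference gene. It was 0.50 without LsCK replicate 1 and 0.44 without LsSq replicate 2, but -0.12 without LsCK replicate 2 and -0.17 without LsSq replicate 1. LsCv versus LsCK was not used in the choice but shares its LsCK libraries. It had a mean of 6.49 ± 1.83 CPM in LsCv and a log2fold change of 0.93 ± 0.465, or 1.90-fold. Its 95% interval ran from -0.18 to 2.04, the unadjusted p was 0.0888 and the adjusted p was 0.604 by edgeR. LsCv versus LsSq gave 0.76 ± 0.464, or 1.69-fold, with an interval from -0.35 to 1.86, an unadjusted p of 0.149 and an adjusted p of 0.446 by edgeR. Both contrasts stayed positive with any library left out, from 0.62 to 1.30 against LsCK and from 0.47 to 1.09 against LsSq.

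**Figure D1:**
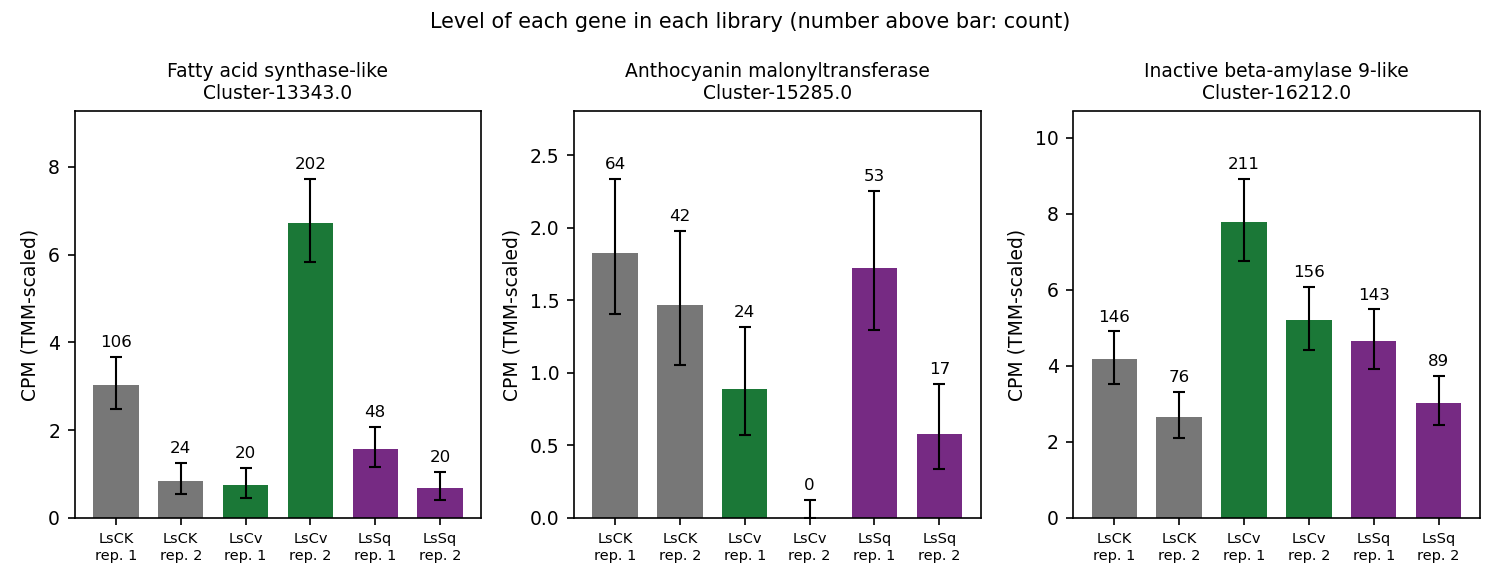
Level of each gene in each library, in CPM scaled by TMM (vertical axis), with the count above the bar. Bars are single libraries (LsCK grey, LsCv green, LsSq purple) and error bars are 95% Poisson intervals of the count, which cover counting error only. The fatty acid synthase-like cluster has 20 and 202 counts in the LsCv libraries, the malonyltransferase 24 and 0, and the beta-amylase 9-like cluster 211 and 156.

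Counted over the 3 genes, the LsCv and LsCK libraries did not overlap for 2 (the malonyltransferase, selected on this contrast, and the beta-amylase 9-like cluster), where 36.6% of the tested clusters did not overlap either. LsSq and LsCK did not overlap for 0 of 3, beside 38.6% of the tested clusters. LsCv and LsSq did not overlap for 1 of 3, the beta-amylase 9-like cluster, beside 55.4%. With 2 libraries against 2, an exact permutation test of a single gene cannot give a two-sided p below 0.333. In the contrasts not used to select them, 0 of the 3 genes passed an adjusted p of 0.05 in edgeR and 0 had an unadjusted p under 0.05 in the fit by group, and in DESeq2 their adjusted p-values were between 0.307 and 0.999. Over all 28157 clusters edgeR also called 0 (0%) in each contrast, with 2459 at an unadjusted p under 0.05 in LsCv versus LsCK, 1310 in LsSq versus LsCK and 4496 in LsCv versus LsSq. DESeq2 with all libraries called 437, 144 and 1469 clusters in the same contrasts.

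**Figure D2:**
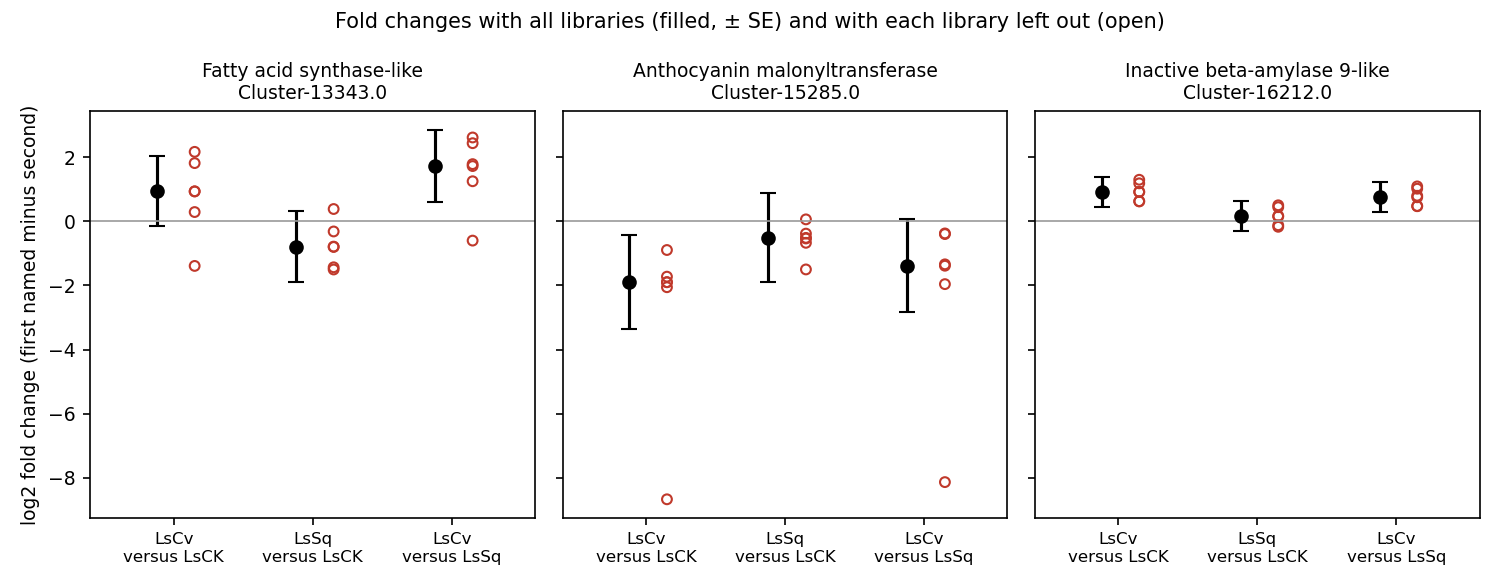
Log2fold changes of the 3 genes in the 3 contrasts (vertical axis, group named first minus group named second). Filled points with bars are the fit to all 6 libraries ± SE, and open circles are the fits with each library left out in turn. The open circles of the fatty acid synthase-like cluster in LsCv versus LsCK lie between -1.39 and 2.17, and those of the beta-amylase 9-like cluster stay above 0 in both contrasts with LsCv. The circles of the malonyltransferase at -8.67 and -8.14 come from fits in which the single LsCv library had 0 counts, so they depend on the prior count and are no measure of size.

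The spread between replicates set these genes apart from one another. On the log2 scale, the replicates of the fatty acid synthase-like cluster differed by 1.83 in LsCK, 3.16 in LsCv and 1.18 in LsSq, and 11.6%, 6.47% and 12.8% of the tested clusters differed by as much or more. For the malonyltransferase the differences were 0.31 in LsCK, 5.76 in LsCv (with 0.5 added to the counts) and 1.55 in LsSq, and 71.8%, 0.881% and 8.93% of the tested clusters differed by as much. Among the 4677 tested clusters whose mean count was within 2 times that of the malonyltransferase, the shares were 77.2%, 2.5% and 16.1%. For the fatty acid synthase-like cluster and the 5060 clusters near its own mean count they were 12%, 5% and 13.6%. The beta-amylase 9-like cluster, at 0.65, 0.58 and 0.62, was close to the median of all clusters in LsCK (0.61) and LsCv (0.57), but above that of LsSq (0.31). The dispersion that edgeR estimated, which is the squared coefficient of variation between replicates, was 0.558, 0.888 and 0.151 for the 3 genes in that order, against a common value of 0.211. A dispersion as high or higher was estimated for 11.9%, 5.91% and 49.3% of the tested clusters.

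**Figure D3:**
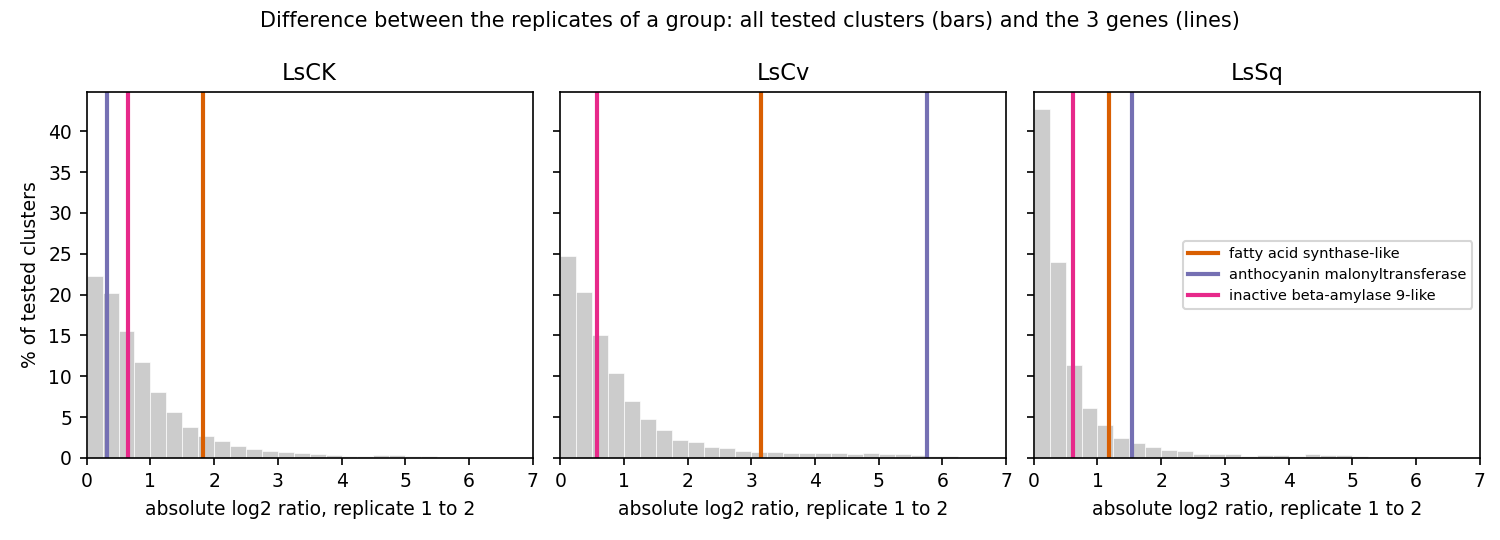
Absolute log2 ratio between the replicates of each group (horizontal axis) for all 28157 tested clusters (grey bars, percent of clusters per bin) and for the 3 genes (lines). In LsCv the fatty acid synthase-like line lies at 3.16 and the malonyltransferase line at 5.76, in the far tail of the bars, and the beta-amylase 9-like line lies at 0.58, near the median.

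The reference gene of the qRT-PCR, a methyltransferase acting on chloroplast ribosomal RNA, had 575 and 450 counts in LsCK, 518 and 613 in LsCv, and 605 and 593 in LsSq. Its level was 16.4 and 15.7 CPM in LsCK, 19.1 and 20.4 CPM in LsCv, and 19.7 and 20.2 CPM in LsSq, so all 4 treated libraries lay above both controls. Of all tested clusters, 36.6% did not overlap in LsCv versus LsCK and 38.6% in LsSq versus LsCK. Neither contrast with LsCK passed the test, with log2fold changes of 0.30 ± 0.254 for LsCv (edgeR adjusted p = 0.728) and 0.31 ± 0.254 for LsSq (edgeR adjusted p = 0.962). Both contrasts share the LsCK libraries. Per 1000 counts of this gene, the fatty acid synthase-like cluster had 184 and 53.3 counts in LsCK, 38.6 and 330 in LsCv, and 79.3 and 33.7 in LsSq. The malonyltransferase had 111 and 93.3 counts per 1000 in LsCK, 46.3 and 0 in LsCv, and 87.6 and 28.7 in LsSq. The beta-amylase 9-like cluster had 254 and 169 per 1000 in LsCK, 407 and 254 in LsCv, and 236 and 150 in LsSq. On this scale LsCv still lay above LsCK for the beta-amylase 9-like cluster, though LsCv replicate 2 and LsCK replicate 1 were now almost equal. The log2fold changes became 0.63, -2.15 and 0.64 for LsCv versus LsCK, and -1.07, -0.81 and -0.13 for LsSq versus LsCK.

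As a description over only 6 libraries, which share their depth and group structure, Pearson's r of log2 CPM was -0.65 between the fatty acid synthase-like cluster and the malonyltransferase, 0.23 between the fatty acid synthase-like and beta-amylase 9-like clusters, and -0.23 between the malonyltransferase and the beta-amylase 9-like cluster. The fatty acid synthase-like and malonyltransferase clusters were opposite in LsCv replicate 2, the highest library of the former and the lowest of the latter. The malonyltransferase had 0 counts there, so its log2 level, at -5.15 from its mean over the 6 libraries, was set by the 0.5 added to the counts. All r values of the malonyltransferase, here and below, depend on that library, and r without it was not computed. Among the 300 tested clusters that the study's supplementary lists name, the pattern closest to the fatty acid synthase-like cluster was that of Cluster-15809.7991, an uncharacterized gene (r = 0.81), followed by Cluster-5541.0, Rab7-like (r = 0.77). For the malonyltransferase the closest were Cluster-3800.0, PM19L-like (r = 0.71), and Cluster-15809.8681, extensin-2-like (r = 0.70). For the beta-amylase 9-like cluster they were Cluster-14173.1, linamarin synthase 2-like (r = 0.88), and Cluster-10683.0, which has no description (r = 0.82). Over all other tested clusters, 143 (0.508%), 442 (1.57%) and 654 (2.32%) reached r of 0.9 or more with the 3 genes in that order.

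Other genes of the same pathways were taken from the study's core list, which was held in part. Of these, 19 clusters had a lettuce description naming a lipid (12), flavonoid (4) or sugar or starch enzyme or transporter (3). The study chose that list on both contrasts with LsCK, in these libraries, so its direction there is not independent evidence. Clusters were listed for a change in the same direction in both, which also favours a small difference in LsCv versus LsSq. The values of that contrast therefore cannot show whether these genes respond alike to both extracts. In LsCv versus LsSq 0 of the 19 passed in edgeR (adjusted) and 0 had an unadjusted p under 0.05, while 6.26% of all tested clusters were higher and 9.71% lower at that unadjusted p. Of the 19, 8 had a higher and 11 a lower log2fold change, from -0.54 to 0.40 with a median of -0.05, beside -0.06 over all tested clusters, and 2 of 19 did not overlap, where 55.4% of all tested clusters did not.

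Against LsCK, the list is described without a test of its own. In LsCv versus LsCK, edgeR gave an unadjusted p under 0.05 to 2 that were higher and 2 that were lower of the 19, where 2.39% and 6.35% of all tested clusters had one. In LsSq versus LsCK it gave 2 higher and 0 lower, where the shares were 2.23% and 2.43%. The study chose the 19 on both of these contrasts in these libraries, so the counts depend on that choice. They cannot test the list against the shares over all tested clusters, and no conclusion is drawn from them. LsCK replicate 1 was nearer than LsCK replicate 2 to the mean of the treated libraries for 18 of the 19. The exception was the WSD1-like O-acyltransferase (Cluster-19059.0). The share over all tested clusters was not computed for the count of 18 or for the signs below. Neither count is therefore read as a trait of these genes. All 19 had the sign under which the core list gives them in both contrasts, and in both the number fell to 10 of 19 without LsCK replicate 2. The median absolute log2fold change of the 19 in LsCv versus LsCK was 1.23, which became 0.52 without LsCK replicate 2 and 2.20 without LsCK replicate 1. In LsSq versus LsCK it was 1.16, with 0.57 and 2.09 in the same order. Over all tested clusters the medians in that order were 0.46, 0.43 and 0.76 in LsCv versus LsCK. They were 0.38, 0.57 and 0.48 in LsSq versus LsCK. These settings were chosen after the values had been seen.

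Counts of single genes of the list are given as a description. The list was chosen on contrasts that hold LsCK replicate 2, so the place of that library in them is not independent evidence. Chalcone synthase (Cluster-7433.1), which makes the first flavonoid of the pathway that leads to anthocyanins, had 70 and 1118 counts in LsCK, 103 and 54 in LsCv, and 105 and 129 in LsSq. Naringenin,2-oxoglutarate 3-dioxygenase (Cluster-20844.0), a later step of the same pathway, had 415 and 1286 in LsCK, 503 and 351 in LsCv, and 470 and 364 in LsSq. In both, LsCK replicate 2 alone was high, whereas the malonyltransferase, which acts on the finished anthocyanin, was slightly lower in LsCK replicate 2 than in LsCK replicate 1. The rest of the flavonoid group went the other way and was lowest in LsCK replicate 2. Probable chalcone--flavonone isomerase 3 (Cluster-16921.0) had 332 and 83 counts in LsCK, and the isoflavone reductase homolog A622-like cluster (Cluster-10466.0) had 43 and 0.

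Among lipid genes, the DES8.11-like delta(12) fatty acid desaturase (Cluster-15809.7209), which adds a double bond to a fatty acid, had 10930 and 3780 counts in LsCK, 12927 and 18907 in LsCv, and 13907 and 16780 in LsSq. The DCR-like acyltransferase (Cluster-15809.1332), of the same BAHD family as the malonyltransferase and in Arabidopsis needed for the cuticle, had 829 and 28 in LsCK, 952 and 2478 in LsCv, and 2435 and 1086 in LsSq. The desaturase and the acyltransferase were lowest in LsCK replicate 2. The lipid group was mixed, since 7 of its 12 clusters had a higher and 5 a lower log2fold change in each contrast with LsCK. Among the lower ones, the delta-9 acyl-lipid desaturase 1-like cluster (Cluster-11736.0) had 46 and 299 counts in LsCK. The LTL1-like GDSL esterase/lipase (Cluster-15809.10983) had 877 and 6468, and both were highest in LsCK replicate 2. Probable sucrose-phosphate synthase 1 (Cluster-17804.1), an enzyme of sucrose synthesis, had 140 and 379 in LsCK, 42 and 173 in LsCv, and 101 and 138 in LsSq, with LsCK replicate 2 the highest library and LsCv replicate 1 the lowest. The beta-amylase 9-like cluster was also at its lowest in LsCK replicate 2, where it was 0.65 below LsCK replicate 1 on the log2 scale, beside a difference of 0.62 between the LsSq replicates.

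**Figure D4:**
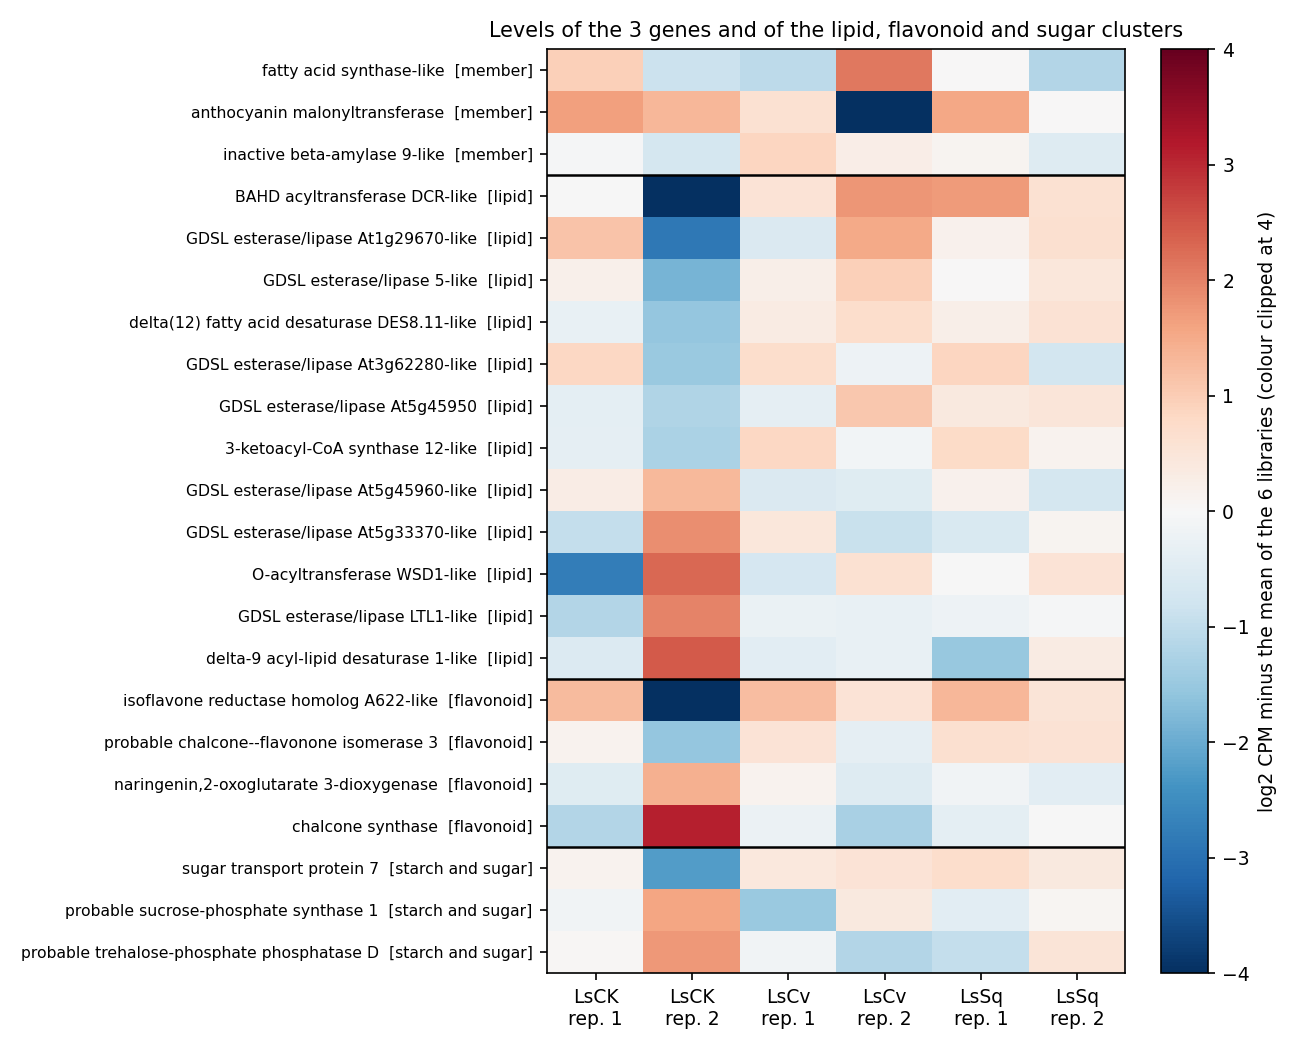
Levels of the 3 genes (rows above the uppermost line, labelled member) and of the 19 lipid, flavonoid and sugar or starch clusters of the study's core list in each library, as log2 CPM minus the mean of the 6 libraries (colour, red above and blue below the mean, clipped at 4). LsCK replicate 2 stands apart from the other libraries in most of the 19 rows, whereas in the rows of the fatty acid synthase-like cluster and the malonyltransferase the darkest cell is LsCv replicate 2. The 19 were chosen by the study on contrasts with LsCK, so the place of LsCK replicate 2 is not read as a trait of these genes.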

How the data were processed

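Per the paper's methods, the authors sequenced poly-A RNA of the 6 leaf libraries, removed poor reads, assembled the rest without a genome (Trinity), grouped transcripts into clusters (Corset) and counted reads with RSEM. The processing notes name CASAVA 1.8 and DESeq2 1.26.0. The authors deposited expected counts, RSEM estimates that need not be whole, per cluster and library, without normalization. Per-sample columns left unused numbered 0.

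After rounding, the counts were analysed in edgeR 4.0.16 under R 4.3.3 (filterByExpr, TMM, glmQLFit and glmQLFTest without robust estimation, 1 fit of 6 libraries with a group factor, prior count 0.125). Benjamini-Hochberg adjustment covered all 28157 clusters tested, with a threshold of 0.05. Each standard error was derived from the F statistic and the fold change. DESeq2 1.42.0 served as an alternative. Log2 CPM for correlations and replicate differences were computed with 0.5 added to the counts. The code was tested on simulated data. Figures were drawn with matplotlib 3.10.9.

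The genes named were the 3 genes, the qRT-PCR reference gene, lipid, flavonoid and starch or sugar clusters picked by description words from the core list (1214 clusters held), and for each gene the 2 named clusters closest in pattern. The genes and lists were chosen with earlier results of these data known. Gene names came from the study's supplementary tables, and all 19 list symbols were found in the RefSeq gene table. The study's fold changes and qRT-PCR values were not used. Alternatives were other scalings, filters, prior counts, unrounded counts, DESeq2, the groups compared only, a replicate block and each library left out.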

Additional observations from a re-analysis of the deposited data

How the results depend on the processing

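In LsCv versus LsCK, LsSq versus LsCK and LsCv versus LsSq, where edgeR called 0 clusters, DESeq2 with all libraries called 437 (68 higher, 369 lower), 144 (33 higher, 111 lower) and 1469 (662 higher, 807 lower), and DESeq2 with only the groups compared called 225 (18 higher, 207 lower), 179 (51 higher, 128 lower) and 2782 (1546 higher, 1236 lower). The cause was not tested. None of the 3 genes was among them in the contrasts not used to select it. Of the 99 log2fold changes of the 3 genes under other scalings, filters, prior counts, rounding, fits and DESeq2, tested contrasts kept their direction. They also kept their side of the threshold wherever a p-value was computed, which scaling to the reference gene did not include. Those only described moved by less than the spread between replicates, though scaling to the reference gene turned the beta-amylase 9-like cluster in LsSq versus LsCK from 0.17 to -0.13. With each library left out in turn, the calls in LsCv versus LsCK ranged from 0 to 188 (188 without LsCK replicate 1), and were 0 in the other contrasts. Calls of the list in these fits are not given, because the study chose it on both contrasts with LsCK. Over the same fits the fatty acid synthase-like cluster ranged from -1.39 to 2.17, -1.50 to 0.38 and -0.60 to 2.62, and the malonyltransferase from -8.67 to -0.90, -1.50 to 0.0603 and -8.14 to -0.38, in the 3 contrasts in the order above. The beta-amylase 9-like cluster ranged from 0.62 to 1.30, -0.17 to 0.50 and 0.47 to 1.09. The median absolute log2fold change of the list ranged from 0.52 to 2.20 and 0.57 to 2.09 in the contrasts with LsCK. Fits that left 1 library in a group assume that it varies like the others.

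The replicate differences of the groups correlated weakly over clusters (r of 0.16, 0.23 and 0.13), and with 2 numbers per group and nothing in the labels on shared batches it was not settled whether the numbers pair the libraries. With the replicate block edgeR again called 0 clusters in each contrast, with 3319, 1780 and 5455 at an unadjusted p under 0.05, and the log2fold change of the beta-amylase 9-like cluster in LsCv versus LsCK was 0.93 (unadjusted p = 0.0456 against 0.0888 without the block, adjusted p = 0.415, against 0.291 to 1.00 over its alternatives). With 2 libraries per group, the 95% intervals of the fatty acid synthase-like cluster and of the malonyltransferase span more than 5 on the log2 scale.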
